A study of Mus musculus with 9 samples.

Results

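The Hox genes are the homeobox genes of the HoxA, HoxB, HoxC and HoxD clusters, and they were followed here in ST2 cells. They were taken from the deposited count table as every protein-coding gene whose symbol is Hox, a cluster letter and a number. This gave 40 of the 54532 genes of the table, under 39 symbols, because Hoxd4 is listed under 2 gene identifiers. ST2 is a mouse bone marrow stromal line labelled wild type and used as a model of mesenchymal stem cells (MSCs). Poly-A selected RNA was sequenced in 9 libraries, 3 per group, after 72 h of exposure. The groups received vehicle, recombinant human Wnt3a (rhWnt3a) at 50 ng/ml, or the same dose of rhWnt3a plus OSMI, an inhibitor of O-GlcNAc transferase (OGT), at 20 µM. The titles of the third group name both agents, whereas its treatment label names OSMI alone. It is therefore given here as rhWnt3a with OSMI, or both agents, and a group with OSMI alone was not analysed here. The study sequenced these groups to ask how O-GlcNAcylation acts on osteogenesis. ST2 is a single line, and the labels do not say whether replicates came from separate cultures, so the p-values measure only the spread between these libraries.

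Hox proteins bind DNA through the homeodomain and tell cells where along the body and limb axes they lie. The genes of a cluster are numbered from the anterior end, paralog group 1, to the posterior end, paralog group 13, and are switched on in that order in the embryo. Mesenchymal cells of the adult skeleton keep part of this code as a record of their place of origin. Wnt signaling, retinoic acid and Cdx factors act on the clusters in the embryo, Polycomb proteins keep silent Hox genes closed, Trithorax proteins keep active ones open, and Pbx, Meis and Pknox proteins of the TALE class bind DNA together with Hox proteins.

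Members of a paralog group resemble each other most in the homeobox, so it was checked where their reads could be confused. The last 60 bases of the 180-base homeobox are shown for Hoxb9 and Hoxc6, the genes that rhWnt3a raised, each with an active paralog, from GENCODE M21 transcripts. Capitals mark bases of Hoxc9 that differ from Hoxb9 and bases of Hoxb6 that differ from Hoxc6.
Hoxb9: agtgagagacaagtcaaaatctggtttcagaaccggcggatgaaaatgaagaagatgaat
Hoxc9: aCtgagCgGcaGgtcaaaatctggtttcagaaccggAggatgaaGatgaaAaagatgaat
Hoxc6: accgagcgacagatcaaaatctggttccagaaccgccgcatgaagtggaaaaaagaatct
Hoxb6: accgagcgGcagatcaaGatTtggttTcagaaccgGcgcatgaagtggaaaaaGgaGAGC
Over the whole homeobox, Hoxc9 was identical to Hoxb9 at 83.9% of bases, with a longest unbroken match of 24 bases. Hoxb6 matched Hoxc6 at 82.8% of bases, with no unbroken match over 19 bases. None of the 23 tested Hox genes had a stretch of at least 100 bases at 97% identity or more in a gene elsewhere. Exons of 10 of them share bases with another gene at the same place, most of all in Hoxb3, where 52.9% lie opposite the antisense gene Hoxb3os. Hoxb9, Hoxc6, Hoxc13, Hoxa10, Hoxc9 and Hoxc11 share none. Whether the reads were counted by strand is not given in the sources used here, so counts of the overlapping genes are less certain. Some overlaps, such as that of Hoxc10 with Hoxc5 over 166 bases, lie on the same strand, where counting by strand would not separate them.

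The libraries held 16135898 to 17583945 counts, of which 2.51% to 3.36% were mitochondrial. In each group 1 library lay apart from the other 2, namely vehicle replicate 3, rhWnt3a replicate 2 and rhWnt3a with OSMI replicate 3. Their mean squared log2 differences from the other libraries of their group were 0.373 to 0.454, against 0.111 to 0.119 for the remaining pairs. On the first axis of the within-group differences, vehicle replicate 3 (0.493) and rhWnt3a replicate 2 (0.485) lay on the same side. The library of rhWnt3a with OSMI replicate 3 lay on the other (-0.431), and in each group the other 2 libraries had the opposite sign. Of 12 stromal markers 11 were tested, while Thy1 stayed at 0 to 4 counts. The summed level of the list was 20400 to 27100 CPM (counts scaled to the TMM-adjusted size of each library) with vehicle. It was 16300 to 19300 with rhWnt3a and 9210 to 16900 with rhWnt3a and OSMI. The largest members were Col1a1, at 2710 to 11700 CPM over the 9 libraries, and Col1a2, at 4330 to 10300. The sum therefore does not speak for each marker. Prrx1, also listed, had means of 139 CPM with vehicle, 256 with rhWnt3a and 246 with both agents. Members other than Prrx1 are not given by group here. Markers of blood cells summed to at most 1.27 CPM, of endothelium to at most 2.8 and of epithelium to at most 0.244. The neural list reached 259 CPM almost wholly through Map2, with Rbfox3 at 0 or 1 count. Axin2, a direct target of Wnt signaling, rose with rhWnt3a by 5.06 on the log2 scale (SE 0.35, edgeR adjusted p = 3.67e-05). Lef1, another target, rose by 2.28 (SE 0.43, adjusted p = 0.00842), and Nkd1 had 0 to 3 counts and was not tested. With both agents against vehicle Axin2 was higher by 4.55 (adjusted p = 4.78e-05), and Lef1, at 0.93, was not called (adjusted p = 0.199). In RNA from whole cultures, fewer cells of a type and less RNA per cell cannot be told apart.

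ST2 cells carried RNA of the HoxA, HoxB and HoxC clusters and no counted read of HoxD. Of the 40 genes, 23 passed the filter on low counts and were tested, 12 were at 0 in every library, and 4, Hoxa11, Hoxb2, Hoxb7 and Hoxb13, had 3 counts or fewer in every library. The last, Hoxc12, had 0 to 4 counts and was not tested. Of all Hox counts, 45.2% came from HoxA on chromosome 6, 48.3% from HoxC on chromosome 15 and 6.45% from HoxB on chromosome 11. The active stretch of HoxA reached Hoxa10 without a gap and ended there, since Hoxa11 had 3 counts in all and Hoxa13 had 0. In HoxC every gene from Hoxc4 to Hoxc11 was tested, and beyond the near-silent Hoxc12 the last gene, Hoxc13, was tested too. HoxB was patchy, with Hoxb3 to Hoxb6, Hoxb8 and Hoxb9 tested and Hoxb1, Hoxb2, Hoxb7 and Hoxb13 at or near 0.

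**Figure D1:**
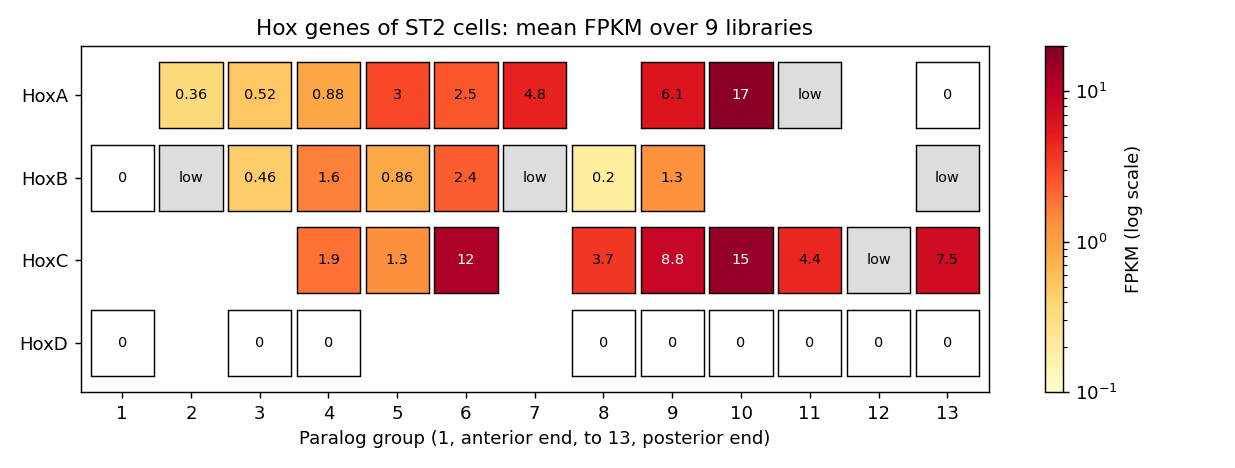
Mean deposited FPKM over the 9 libraries of each Hox gene, with clusters as rows and paralog groups 1 to 13 as columns, on a log colour scale. White boxes with 0 had no count in any library, grey boxes marked low had at most 4 counts in a library, and an empty place has no gene or one not shown. The darkest boxes are Hoxa10 at 17.17 and Hoxc10 at 15.47 FPKM, and the HoxD row is white throughout.

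Levels of different genes were compared only per length, as FPKM, the authors' level scaled to transcript length and library size. Hoxa10, a paralog group 10 gene known from hindlimb and uterus patterning, stood first, at 18.62, 20.46 and 19.36 FPKM with vehicle, 16.24, 18.37 and 16.33 with rhWnt3a, then 14.01, 15.85 and 15.29 with both agents. It lay at the 79.1st percentile of the tested genes. Hoxc10, its paralog in HoxC, had 16.65, 18.47 and 15.53 FPKM with vehicle, 15.96, 16.81 and 17.71 with rhWnt3a, then 10.89, 11.57 and 15.66 with both agents. Hoxc6 followed with a mean over the 9 libraries of 12.22 FPKM, Hoxc9 with 8.785 and Hoxc13 with 7.469. Next came Hoxa9 at 6.114, Hoxa7 at 4.806, Hoxc11 at 4.427, Hoxc8 at 3.696 and Hoxa5 at 3.027 FPKM. Hoxa6, Hoxb6, Hoxc4, Hoxb4, Hoxc5 and Hoxb9 had means from 2.505 down to 1.256. Hoxa4, Hoxb5, Hoxa3, Hoxb3, Hoxa2 and Hoxb8 had means below 1, the lowest being Hoxb8 at 0.1962. The order is coarse, since the 9-library ranges of each gene and the next one down overlapped in every case. Added up by paralog group, group 10 gave 33.2% of the summed Hox FPKM, group 6 gave 17.4% and group 9 gave 16.5%, whereas groups 2 and 3 gave 0.37% and 1%.

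HoxD, on chromosome 2, was not detected. All 10 HoxD rows and all 9 noncoding genes between Hoxd13 and Hoxd1 were at 0 in each of the 9 libraries. A count of 0 allows up to 3 counts, which is 0.17 to 0.191 CPM in a single library and 0.0198 CPM over all 151732067 counts, covering counting error only. Hoxd3 shares 62.8% of its exon bases with other genes and Hoxd4, by its identifier in GENCODE M21, 52.3%, so their counts of 0 are less certain. The nearest genes with any count lay well beyond both ends, so the stretch without counts was wider than the cluster. Mtx2, a mitochondrial outer membrane protein gene that starts 60.7 kb beyond Hoxd1, had 282 to 669 counts, and Mrpl23-ps1, 76.4 kb beyond Hoxd13, had 3 to 20. In HoxA, HoxB and HoxC, by contrast, 28 of 30 genes had at least 1 count. The deposited files hold no measure of DNA or chromatin at the cluster.

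Promoter windows of 250 bases before the start were found in the RefSeq table (GRCm38.p6) for 22 of the 39 symbols and not for Hoxb9, Hoxc6 and Hoxc13. The windows of Hoxa10, the Hox gene of highest level, and of its silent paralog Hoxd10 are shown, with each CpG, the letters CG, which read the same on both strands, in capitals.
Hoxa10, chr6:52234940-52235189, minus strand: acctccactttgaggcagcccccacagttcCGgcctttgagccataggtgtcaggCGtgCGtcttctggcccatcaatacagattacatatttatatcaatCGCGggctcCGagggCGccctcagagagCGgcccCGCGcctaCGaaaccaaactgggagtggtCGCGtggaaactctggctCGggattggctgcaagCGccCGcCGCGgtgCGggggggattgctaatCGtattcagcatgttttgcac
Hoxa10, chr6:52240855-52241104, minus strand: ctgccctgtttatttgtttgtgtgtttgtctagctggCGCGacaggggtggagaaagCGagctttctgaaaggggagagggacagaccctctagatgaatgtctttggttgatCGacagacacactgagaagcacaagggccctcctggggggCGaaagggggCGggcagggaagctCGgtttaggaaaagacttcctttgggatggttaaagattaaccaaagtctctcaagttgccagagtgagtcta
Hoxd10, chr2:74691641-74691890, plus strand: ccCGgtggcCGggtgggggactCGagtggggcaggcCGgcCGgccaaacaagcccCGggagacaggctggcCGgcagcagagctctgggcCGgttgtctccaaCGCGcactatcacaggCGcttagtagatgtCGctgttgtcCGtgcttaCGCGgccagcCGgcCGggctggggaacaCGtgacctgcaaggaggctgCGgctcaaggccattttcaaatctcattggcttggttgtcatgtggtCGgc
The first Hoxa10 window and the Hoxd10 window held 20 CpG each, and the second Hoxa10 window held 7. HoxD windows had a median of 12.5 CpG (2 to 31, 10 windows) and windows of tested Hox genes 12 (3 to 28, 11 windows), against 6 over all 32851 windows. At least 1 CpG was present in 92.1% of all windows and 20 or more in 17.9%. Silent HoxD and active Hox genes thus had like numbers of CpG in these windows, which says nothing of whether they were methylated. The active windows stand for 10 of the 23 tested genes and, of HoxC, for Hoxc4 alone.

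rhWnt3a raised 2 of the 23 tested Hox genes, Hoxb9 and Hoxc6, and edgeR and DESeq2 called none lower. A gene was called changed when its adjusted p in edgeR's quasi-likelihood test was below 0.05 and its log2 fold change beyond 0.5. By this rule 8.7% of the tested Hox genes were called, against 8.78% of all 14004 tested genes, so the share was that of the background. For genes called higher the background was 2.92% and for genes called lower 5.86%. Log2 fold changes were positive in 20 of 23 Hox genes, with a median of 0.31 (-0.45 to 2.29), against a median of 0.04 over all tested genes. An unadjusted p below 0.05 was reached by 9 of 23, of which 8 were higher and 1 lower, against 2793 of all 14004 tested genes. In 11 of 23 (47.8%) the vehicle and rhWnt3a libraries did not overlap, against a background of 26.4%.

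Hoxb9, a posterior gene of the trunk that acts in thoracic skeletal and limb patterning, lies at chr11:96271457-96276595 on the plus strand (GRCm38). It had 1.222, 0.8282 and 0.9048 CPM with vehicle, 4.988, 5.685 and 3.829 with rhWnt3a, then 3.144, 3.673 and 5.304 with both agents. These levels rest on 20, 13 and 16 counts with vehicle, 82, 100 and 64 with rhWnt3a and 52, 64 and 91 with OSMI added. Every library with rhWnt3a lay above every vehicle library. The increase with rhWnt3a was 2.29 on the log2 scale (SE 0.30, adjusted p = 0.00105), or 4.88-fold. Without any 1 of the 9 libraries it stayed between 2.16 and 2.47. Its neighbours in the cluster were not called. Hoxb8 had 3 to 7 counts with vehicle and 11 to 15 with rhWnt3a (1.37, SE 0.48, adjusted p = 0.126), and Hoxb13 had at most 2 counts in any library. Its paralogs were not called either, with 0.31 for Hoxa9 (adjusted p = 0.226) and -0.03 for Hoxc9 (adjusted p = 0.948).

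Hoxc6, which marks the thoracic level, lies at chr15:102998257-103011881 on the plus strand. It had 22.17, 20.71 and 16.29 CPM with vehicle, 35.71, 40.88 and 37.45 with rhWnt3a, then 25.21, 34.2 and 36.6 with both agents. The 3 rhWnt3a libraries were close to each other and far above the vehicle libraries. It rose by 0.95 on the log2 scale (SE 0.18, adjusted p = 0.00766), or 1.93-fold, and the call held without any 1 library. The paralogs Hoxa6 and Hoxb6 had 0.78 (adjusted p = 0.527) and 0.70 (adjusted p = 0.324). For Hoxb6 vehicle replicate 3 stood apart, with 28 counts against 76 and 72 in the other 2.

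Hoxc13, the most posterior active gene and known from hair and nail, lies at chr15:102921103-102928814 on the plus strand. It had 21.5, 22.17 and 26.64 CPM with vehicle and 16.43, 18.59 and 16.33 with rhWnt3a, so the groups did not overlap. Its log2 fold change of -0.45 (SE 0.14, adjusted p = 0.0794) was not called. Hoxa10 had 61.08, 67.73 and 64.87 CPM with vehicle and 54.51, 60.66 and 54.8 with rhWnt3a, which do not overlap either, at a log2 fold change of -0.19 (95% interval -0.44 to 0.07). Hoxc10 had 0.01 (-0.33 to 0.34) and Hoxc9 -0.03 (-0.32 to 0.26). Hoxc9 had 24.43, 23.25 and 19.34 CPM with vehicle and 22.51, 21.21 and 22.02 with rhWnt3a, which overlap, and 20.38, 20.72 and 21.45 with both agents. Of the anterior and central genes, Hoxa2 had 1 to 7 counts with vehicle and 8 to 15 with rhWnt3a (1.34, SE 0.58, adjusted p = 0.236), and Hoxa7 had 0.39 (SE 0.13, adjusted p = 0.0983). Hoxa3, Hoxa5, Hoxb3, Hoxb4, Hoxb5, Hoxc4, Hoxc5 and Hoxc8 lay between 0.08 and 0.49, with adjusted p from 0.473 to 0.95.

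**Figure D2:**
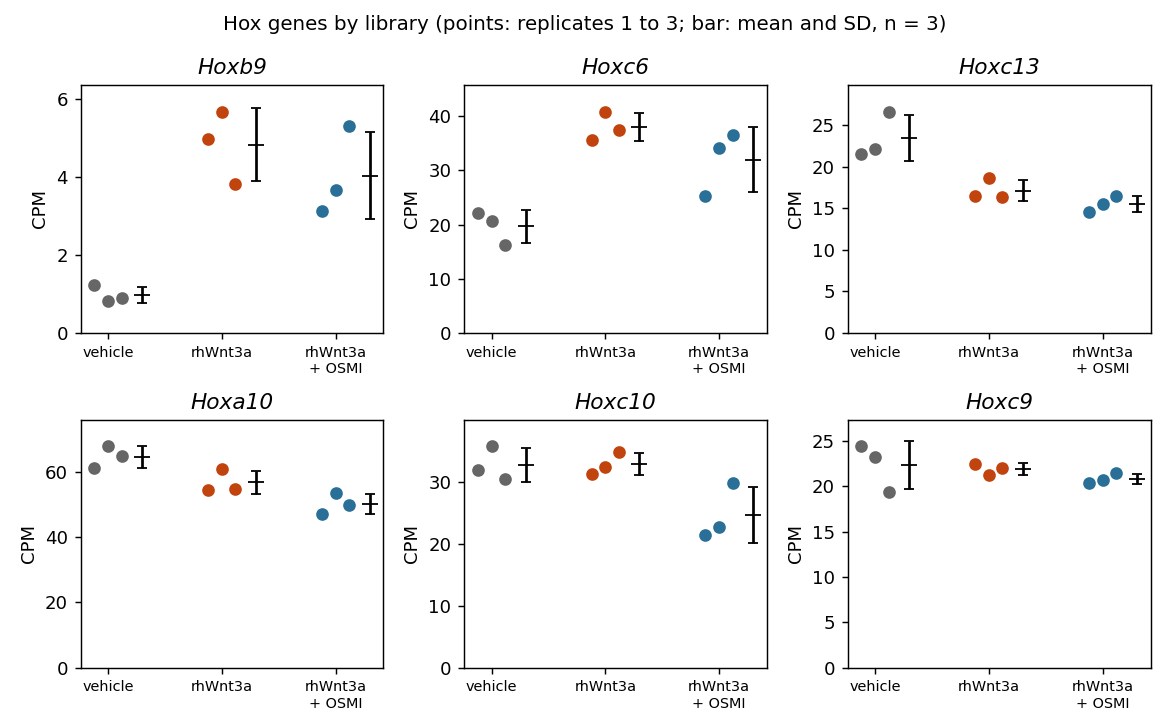
CPM on TMM-scaled totals of 6 Hox genes in each library, in panels whose vertical axes start at 0. Points are replicates 1 to 3 of vehicle (grey), rhWnt3a (red) and rhWnt3a with OSMI (blue), and bars give the mean and SD (n = 3). Hoxb9 lies at 0.8282 to 1.222 with vehicle and at 3.144 or above with rhWnt3a, alone or with OSMI, whereas Hoxc9 lies between 19.34 and 24.43 in all 9 libraries.

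Adding OSMI to rhWnt3a called none of the 23 Hox genes, against 4.74% of all tested genes (1.69% higher and 3.05% lower). An unadjusted p below 0.05 was reached by 4 of 23, against 3160 of all 14004 tested genes. Of the 4, 2 were also beyond the fold threshold, and DESeq2 called 0. Log2 fold changes were negative in 15 of 23, with a median of -0.07 (-0.99 to 0.34), against -0.01 over all tested genes. The 2 groups did not overlap for 6 Hox genes (26.1%), against a background of 33.7%.

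For the Hox genes raised by rhWnt3a no difference was detected. Hoxb9 differed by -0.26 (95% interval -0.85 to 0.33, adjusted p = 0.574) and Hoxc6 by -0.25 (-0.64 to 0.14, adjusted p = 0.412), so a fall of up to 0.85 and 0.64 is within the error. Hoxa4 had the lowest value. It had 18, 20 and 22 counts with vehicle, 29, 39 and 37 with rhWnt3a, and 12, 20 and 21 with OSMI added (-0.99, SE 0.29, adjusted p = 0.0812). Hoxc11, a hindlimb gene, had 7.635, 7.391 and 8.539 CPM with vehicle, 11.8, 12.96 and 9.931 with rhWnt3a, and 8.223, 6.6 and 8.8 with OSMI added (-0.55, SE 0.17, adjusted p = 0.102). In both genes the rhWnt3a libraries lay above those of the other 2 groups, and neither difference was called. For the comparison of rhWnt3a with vehicle they had 0.77 (adjusted p = 0.147) and 0.56 (adjusted p = 0.0845). Hoxc10 had 31.27, 32.4 and 34.7 CPM with rhWnt3a and 21.34, 22.73 and 29.72 with OSMI added (-0.41, SE 0.15, adjusted p = 0.146), the highest being replicate 3, the library that lay apart. Hoxa9 had -0.36 (SE 0.13, adjusted p = 0.146). The remaining 17 tested Hox genes lay between -0.67 for Hoxb8 and 0.34 for Hoxa2, with no adjusted p below 0.372. Without rhWnt3a with OSMI replicate 3 Hoxc10 was called lower, and without the 3 libraries that lay apart Hoxa4, Hoxc10 and Hoxc11 were called lower. Over all tested genes these fits called 663 of 14338 and 1789 of 14111. Leaving out the 3 libraries keeps vehicle and rhWnt3a libraries from the same side of the first axis and those with OSMI from the other. The calls gained that way cannot be told apart from that axis.

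Against vehicle, rhWnt3a with OSMI called 3 of 23 Hox genes (13%), against a background of 14.2%. Hoxb9 and Hoxc6 were higher and Hoxc13 was lower. The background for genes called higher was 4.84% and for genes called lower 9.34%. Log2 fold changes were positive in 17, with a median of 0.40 (-0.60 to 2.03), against -0.01 over all tested genes, and 9 (39.1%) did not overlap, against 38.8%. This comparison shares its vehicle libraries with that of rhWnt3a alone. Hoxb9 rose by 2.03 on the log2 scale (SE 0.30, adjusted p = 0.00173), or 4.08-fold. Hoxc6 rose by 0.70 (SE 0.18, adjusted p = 0.0251), but the call was lost, at an adjusted p of up to 0.0738, without vehicle replicate 2 or 3 or without rhWnt3a with OSMI replicate 2 or 3. Hoxc13 had 14.51, 15.55 and 16.44 CPM with rhWnt3a and OSMI and fell by 0.60 on the log2 scale (SE 0.14, adjusted p = 0.0184). Its call was lost, at up to 0.0928, without vehicle replicate 2 or 3 or without rhWnt3a with OSMI replicate 1 or 2. The 2 genes of paralog group 10 were also low without being called. Hoxa10 had 47.04, 53.32 and 49.71 CPM with rhWnt3a and OSMI, each below each vehicle library (-0.37, SE 0.11, adjusted p = 0.0573), and Hoxc10 had -0.41 (SE 0.15, adjusted p = 0.102).

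**Figure D3:**
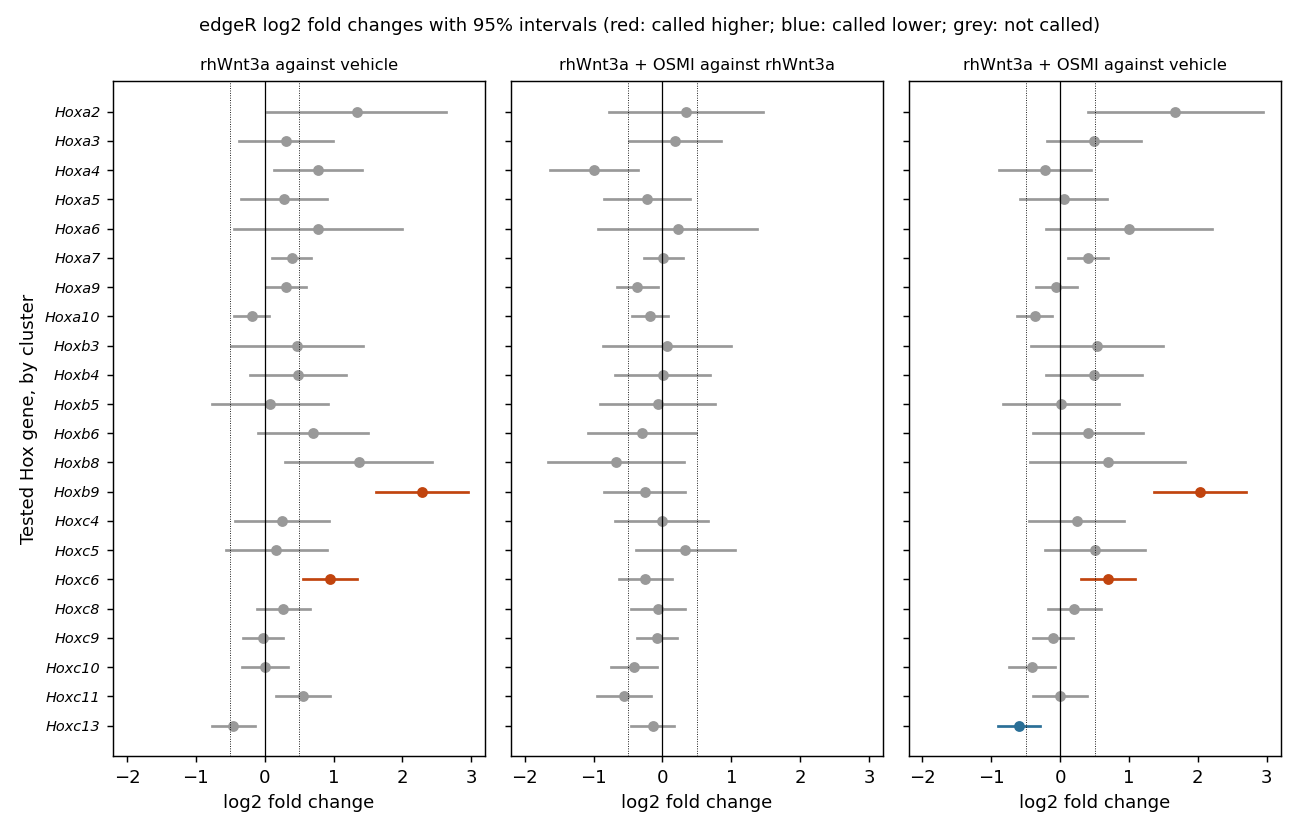
Log2 fold changes of 22 of the 23 tested Hox genes with 95% intervals from edgeR in the 3 comparisons, ordered by cluster and paralog group. Red is called higher, blue called lower and grey not called, and dotted lines mark -0.5 and 0.5. Hoxb9 stands at 2.29 and 2.03 against vehicle, Hoxc13 is the single gene called lower, and the middle panel, for OSMI added to rhWnt3a, has no called gene.

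Within each cluster, HoxB had the highest median log2 fold change with rhWnt3a, 0.59 over 6 genes, against 0.31 over 9 genes in HoxA and 0.21 over 8 genes in HoxC, and these were not tested against each other. The summed HoxB level was 12.17 ± 3.74 CPM with vehicle (SD, n = 3), 20.82 ± 0.755 with rhWnt3a and 18.71 ± 4.21 with rhWnt3a and OSMI. Vehicle replicate 3 was the lowest, at 7.861 CPM against 13.99 and 14.65 in the other 2. HoxA summed to 121 ± 7.03, 128.8 ± 5.7 and 112.6 ± 3.15 CPM, and HoxC to 123.4 ± 7.17, 142.1 ± 3.85 and 122 ± 13.2 CPM. The share of HoxB in all Hox counts was 3.2% to 5.53% with vehicle and 6.57% to 8.6% in the 6 libraries with rhWnt3a. The HoxB sum and share include Hoxb9, the called gene. Its mean was 0.985 CPM with vehicle, 4.834 with rhWnt3a and 4.04 with both agents. They are therefore not a result about the rest of the cluster, which was not summed without Hoxb9.

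The noncoding genes of the clusters were scarce. HoxA holds 18 in the table, HoxB 9, HoxC 7 and HoxD 9, of which 4, 2, 1 and 0 were tested. EdgeR called none of these 7 for rhWnt3a against vehicle, OSMI added to rhWnt3a or both agents against vehicle. The backgrounds, in that order, were 8.78%, 4.74% and 14.2%. None of the 7 had an unadjusted p below 0.05, DESeq2 called 0, and the lowest adjusted p among them was 0.231, for Gm15050. Hotairm1, an antisense RNA of HoxA, had the most counts, 32 to 34 with vehicle, 32 to 50 with rhWnt3a and 20 to 41 with rhWnt3a and OSMI. Hotair, transcribed from the posterior part of HoxC, had 14 to 20, 17 to 21 and 11 to 25 counts.

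Genes that act with the Hox code or on it were counted from lists named from general knowledge, with earlier results of these data known. Of the TALE cofactors 8 of 9 were tested, with a median log2 fold change of 0.10 with rhWnt3a. With rhWnt3a 1 was called higher (12.5%, background 2.92%), and with OSMI added to rhWnt3a 0 were called (background 4.74%). With both agents against vehicle 2 were higher (25%, background 4.84%) and 1 lower (12.5%, background 9.34%). Pbx3, which binds DNA with Hox proteins, rose from 8.734, 8.92 and 9.105 CPM to 14.72, 15.18 and 15.44 (0.76, SE 0.16, adjusted p = 0.013) and was 13.6, 15.38 and 19.23 with OSMI added. Its libraries did not overlap with those of vehicle. The call with rhWnt3a was lost without vehicle replicate 1 or 2 or rhWnt3a replicate 3, at up to 0.0682. With rhWnt3a and OSMI against vehicle, Pbx3 (0.85) and Meis2 (0.56) were higher and Pknox2 was lower. The call of Pbx3 held in 9 of 9 fits without 1 library, that of Meis2 in 3 of 9, with an adjusted p of up to 0.13, and Meis2 was not called without the count filter (adjusted p = 0.0522). Pknox2 had 19.3, 19.75 and 16.34 CPM with vehicle, 14.24, 12 and 14.6 with rhWnt3a, then 6.53, 5.854 and 11.6 with both agents (-1.21, SE 0.25, adjusted p = 0.00949), and lost its call without rhWnt3a with OSMI replicate 1 (adjusted p = 0.0537). Its difference from rhWnt3a alone, -0.77, was not called (adjusted p = 0.107).

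Of 29 Polycomb genes 28 were tested, with medians of 0.00 with rhWnt3a and 0.10 with rhWnt3a and OSMI against vehicle. With rhWnt3a 1 was called higher (3.57%, background 2.92%), and with OSMI added to rhWnt3a 1 was called lower (3.57%, background 3.05%). With both agents against vehicle 2 were higher (7.14%, background 4.84%) and 1 lower (3.57%, background 9.34%). Cbx2, a chromodomain subunit of Polycomb repressive complex 1, rose with rhWnt3a by 0.72 (SE 0.15, adjusted p = 0.0159), a call lost without vehicle replicate 2 or rhWnt3a replicate 1 or 3. With rhWnt3a and OSMI against vehicle, Cbx2 (0.59) and its relative Cbx8 (0.59) were higher, and Pcgf1, a subunit of a variant complex, was lower (-0.83, SE 0.17, adjusted p = 0.00934). Without 1 library Cbx2 kept this call in 3 of 9 fits and Cbx8 in 4 of 9, at adjusted p of up to 0.0893 and 0.11, and without the count filter both lost it (0.0679 and 0.0799). Pcgf1 lost it without vehicle replicate 2 (0.0545) and with GC and length offsets (-0.53, adjusted p = 0.095). Pcgf1 was also the single gene of these lists called between rhWnt3a with OSMI and rhWnt3a alone (-0.73, adjusted p = 0.0402), 8 of the 9 fits without 1 library lost that call, and with the offsets the value was -0.26. EdgeR and DESeq2 called none of the 12 Trithorax genes for rhWnt3a against vehicle, OSMI added to rhWnt3a and both agents against vehicle. The edgeR backgrounds, in that order, were 8.78%, 4.74% and 14.2%, and the medians of the list 0.04, 0.25 and 0.25. An unadjusted p below 0.05 was reached by 0, 2 and 1, against 2793, 3160 and 4250 of all 14004 tested genes. Of 13 genes that feed into the clusters 6 were tested, and with rhWnt3a 1 was called lower (16.7%, background 5.86%). This was Cyp26b1, which breaks down retinoic acid and fell by 1.60 with rhWnt3a (SE 0.41, adjusted p = 0.0355). It had a mean of 4.15 ± 1.38 CPM with vehicle (SD, n = 3) and 1.37 ± 0.535 with rhWnt3a, and the call was lost in 5 of 9 fits without 1 library, at up to 0.153.

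Positional transcription factors outside the clusters held more called genes, and the 2 lists were not tested against each other. Both were chosen with earlier results of these data known, so the shares given here are not independent evidence. Of 49 listed, 32 were tested, and rhWnt3a raised 7 (21.9%, background 2.92%) and lowered 1 (3.12%, background 5.86%), with a median of 0.22. Nr2f1, an orphan nuclear receptor of craniofacial and neural patterning, went from 19.61, 20.58 and 19.06 CPM to 60.47, 58.33 and 59.29 (1.59, SE 0.16, adjusted p = 0.00023). Tbx18, which marks perivascular and somite mesenchyme, went from 23.15, 26.7 and 25.96 CPM to 54.2, 52.47 and 54.92 (1.09, SE 0.12, adjusted p = 0.000357). Both calls held in every fit without 1 library, as did that of Prrx1, a limb mesenchyme factor (0.88, SE 0.12, adjusted p = 0.00125). Hic1, a repressor that marks quiescent mesenchymal progenitors, had 6.841, 10.38 and 15.21 CPM with vehicle and 41.55, 43.15 and 45.77 with rhWnt3a (2.01, SE 0.39, adjusted p = 0.0103), a call lost, at an adjusted p of up to 0.0542, without vehicle replicate 1 or 2. Tbx2 (2.04) and Alx1, which fell by 1.06, were called at adjusted p of 0.0481 and 0.0422 and lost that call in 8 and 7 of the 9 fits without 1 library. Twist1 and Prrx2 rose by 1.04 and 0.85, calls lost without vehicle replicate 2 for Twist1 (adjusted p = 0.0521) and without vehicle replicate 1 or 2 for Prrx2 (up to 0.0981).

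With rhWnt3a and OSMI against vehicle 8 of the 32 (25%, background 4.84%) were higher and edgeR called 0 lower, against a background of 9.34% (3 at an unadjusted p below 0.05, 1 by DESeq2). The higher ones were led by Hic1 (1.32), Nr2f1 (1.10), Tbx3 (0.82) and Prrx1 (0.82). Nr2f1 and Prrx1 were called in 9 of 9 fits without 1 library, but Hic1 in 2 of 9, at adjusted p of up to 0.143 and log2 fold changes from 0.72 to 1.65, and Tbx3 in 3 of 9, at up to 0.0905. Between rhWnt3a with OSMI and rhWnt3a alone edgeR called none of the 32, against a background of 4.74%. An unadjusted p below 0.05 was reached by 8, against 3160 of all 14004 tested genes, and DESeq2 called 1. Nr2f1 had 35.37, 39.03 and 52.16 CPM with rhWnt3a and OSMI, each below each rhWnt3a library (-0.49, SE 0.15, adjusted p = 0.0962). Hic1 had 19.53, 16.18 and 45.28 CPM there, so that replicate 3, the library that lay apart, stood at the rhWnt3a level and the other 2 did not.

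**Figure D4:**
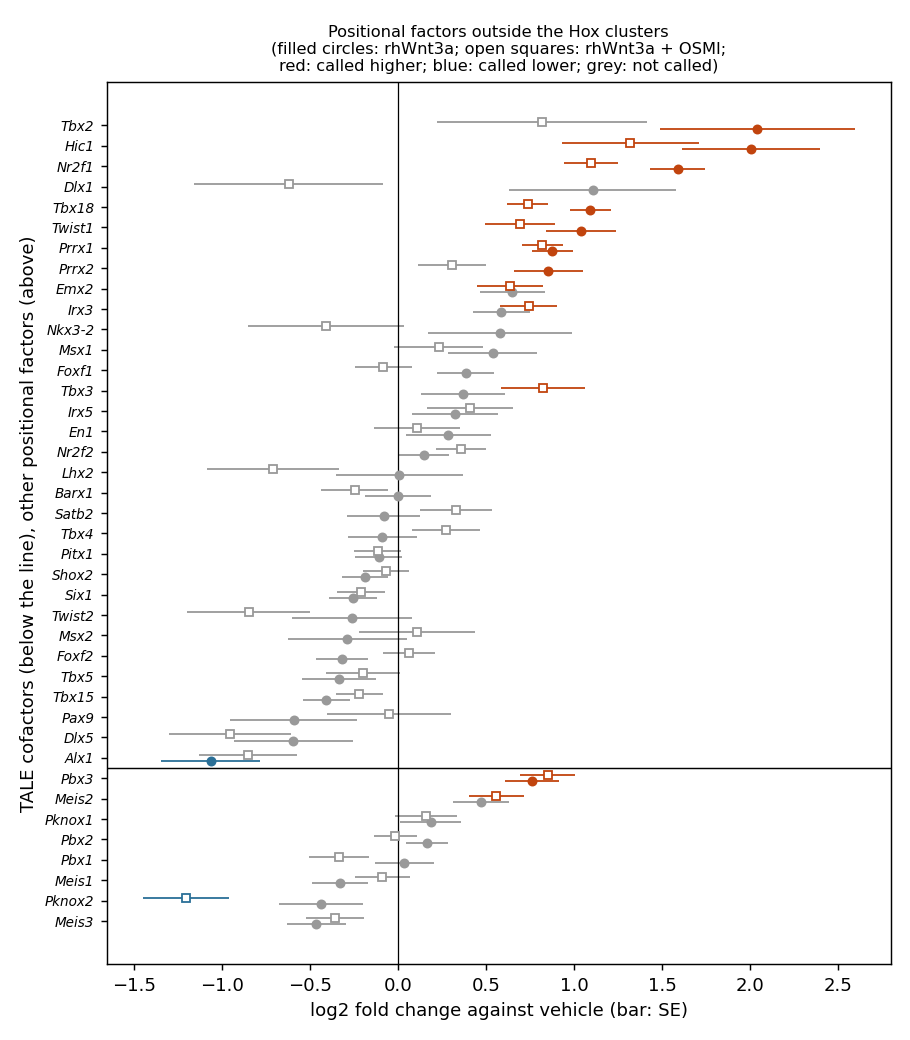
Log2 fold changes against vehicle, with SE bars, of the tested positional transcription factors outside the Hox clusters (above the line) and of the TALE cofactors (below it). Filled circles are rhWnt3a and open squares rhWnt3a with OSMI, and red is called higher, blue called lower and grey not called. Tbx2 and Hic1 lie farthest right with rhWnt3a, at 2.04 and 2.01, and Pknox2 with rhWnt3a and OSMI lies farthest left, at -1.21.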

How the data were processed

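Messenger RNA of 9 ST2 libraries was sequenced, 3 per group. The submitters' processing notes name CASAVA, fastp, HISAT2 2.0.5, featureCounts 1.5.0-p3 and mm10, and strandedness is not given in the sources used here. The authors deposited raw read counts per gene, without normalization, and FPKM values made from them. The authors' own fold changes and p-values, also in that table, were not used. Of 54532 genes 54409 occur in GENCODE M21, 53499 of them with the same start and end, so GRCm38 coordinates are given.

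The whole table was fitted with edgeR 4.0.16 (R 4.3.3; TMM; filterByExpr, minimum count 10 and total 15; quasi-likelihood test, two-sided; no covariates; 3 pairwise contrasts of 1 fit over 9 libraries), with Benjamini-Hochberg adjustment over 14004 genes. Calls needed an adjusted p below 0.05 together with a log2 fold change beyond 0.5, the fold threshold of the study's Methods. In the text, adjusted p always means this. CPM used TMM-scaled totals, and levels of different genes used the deposited FPKM. With 3 libraries a side, a single gene cannot pass an exact permutation test, whose smallest p is 0.1. Scripts were tested on simulated data. Exon overlap used GENCODE M21 and near-identical sequence BLAST 2.17.0.

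Values in every library are given for Hox genes called in any comparison and for the 5 of highest mean FPKM. Those of at most 3 counts in every library are named as a group and the others given mainly by range. Per-library values of Hoxa4, Hoxc11, Hoxb8 and Hoxb6 were added after their values were seen. Of each list up to 4 called genes of largest change per comparison, and of noncoding genes those with the most counts, are named, and Twist1 and Prrx2 were added after their values were seen. The Hox genes and all lists were chosen with earlier results of these data known. Alternatives were DESeq2 1.42.0 and its size factors, no count filter, unadjusted p, other fold thresholds, 6 libraries, a replicate block and leaving out each library. Some items are not reported here.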

Additional observations from a re-analysis of the deposited data

How the results depend on the processing

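The counts of called Hox genes, 2 for rhWnt3a against vehicle, 0 for OSMI added to rhWnt3a and 3 for both agents against vehicle, held with DESeq2, its size factors, no count filter and no fold threshold. With unadjusted p they were 6, 2 and 4, against 2155, 2271 and 3186 of all 14004 tested genes. With a log2 fold change beyond 1 they were 1, 0 and 1, against 796, 380 and 1118 of all 14004 tested genes. With only the 6 libraries compared they were 2, 0 and 2, against 1218 of 13630, 345 of 13522 and 1728 of 13601. With the replicate number as a block they were 2, 0 and 1 (Hoxb9). Correlations of the within-group differences of same-numbered libraries ran from -0.49 to 0.439. With 1 library lying apart in each group, they cannot show whether libraries of the same number shared a culture or batch. Over all genes the block gave 809, 233 and 1297 calls. Leaving out 1 library gave 2 to 2, 0 to 1 and 1 to 3 called Hox genes. Over all tested genes these fits gave 716 to 1506, 203 to 764 and 1218 to 2328 calls. The 1 of OSMI added to rhWnt3a was Hoxc10, without rhWnt3a with OSMI replicate 3, and the 1 against vehicle was Hoxb9, without vehicle replicate 2 or 3 or rhWnt3a with OSMI replicate 2. Chosen after seeing the data, leaving out the 3 libraries that lay apart gave 2, 3 (Hoxa4, Hoxc10 and Hoxc11, lower) and 3 (Hoxb9 higher, Hoxc10 and Hoxc13 lower), and GC and length offsets gave 2, 0 and 3 (Hoxa7, Hoxb9 and Hoxc6, higher). Without the libraries that lay apart, vehicle and rhWnt3a were left on the same side of the first axis and rhWnt3a with OSMI on the other. The calls with OSMI in that fit cannot be told apart from that axis, and the causes were not tested. Log2 ratios to vehicle among libraries on the same side of the first axis, also chosen then, were 1.91 to 2.65 for Hoxb9, 0.77 to 1.33 for Hoxc6 and -0.82 to -0.41 for Hoxc13, but most rest on 1 library in at least 1 group and none was tested.

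Hoxb9 was called against vehicle in 19 of 19 alternatives, in both comparisons. Hoxc6 was called in 18 with rhWnt3a and in 12 with rhWnt3a and OSMI, and Hoxc13 in 11 with rhWnt3a and OSMI. Unadjusted p and no fold threshold, both among the 19, only loosen the main rule, so no call can be lost there. No called Hox value turned its sign. Of 1309 alternative values of Hox genes 67 did, at main values of 0.41 or less in size. For Hoxc10 with rhWnt3a the log2 fold change was -0.006 with DESeq2 size factors, -0.012 without a count filter, -0.004 with DESeq2, -0.021 with 6 libraries, -0.068 without the libraries that lay apart and -0.015 with the offsets. For Hoxc11 with both agents against vehicle it was -0.001 without a filter, -0.001 with DESeq2 and -0.061 without the libraries that lay apart. With the offsets, Hoxc6 had 0.053 and Hoxc9 0.039 for OSMI added to rhWnt3a, and Hoxc9 0.034 and Hoxa4 0.059 against vehicle. Leaving out 1 library gave -0.04 to 0.095 for Hoxc10 and -0.119 to 0.04 for Hoxc9 with rhWnt3a, and -0.083 to 0.15 for Hoxc11 and -0.355 to 0.01 for Hoxa4 with both agents against vehicle.

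Over all tested genes the calls, 1230, 664 and 1986, ranged over the alternatives from 716 to 2557, 203 to 2271 and 1118 to 3351, and 20.8% to 40.8% of them were higher with both agents against vehicle, against 34.1%. Order and levels by counts per kilobase on TMM-scaled totals were as by FPKM within 1 SD. Outside the clusters, calls were lost with only the 6 libraries compared by Alx1 and Tbx2 with rhWnt3a, by Pcgf1 with OSMI added and by Meis2, Hic1, Emx2 and Tbx3 with both agents against vehicle. With the replicate block they were lost by Prrx2, Alx1, Cyp26b1 and Tbx2, by Pcgf1, and by Meis2, Twist1, Emx2, Cbx2, Cbx8 and Tbx3, respectively. Depth limits the low genes such as Hoxa2, whose 95% interval with rhWnt3a ran from 0.03 to 2.64.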
